A study of Homo sapiens with 12 samples.

Results

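Beta-catenin signalling in FASRL-depleted liver cancer cells was followed through 10 genes, namely the Wnt feedback genes and targets DKK1, NOTUM, ZNRF3, RNF43, LGR5, AXIN2, NKD1, TCF7 and LEF1 and the liver target GLUL. The genes were selected on their known place in the pathway, with earlier results of these data known, and were kept when the expression tables listed them. Of the 10 genes, 8 were found among 8842 listed genes, while LEF1 and RNF43 were not listed. RNA sequencing covered 2 human liver cancer cell lines, HepG2 and LM3, which were transfected with siRNA against the long noncoding RNA FASRL (siFASRL) or with a control siRNA (siNC) and harvested 48 h later. The 4 groups were HepG2 siNC, HepG2 siFASRL, LM3 siNC and LM3 siFASRL, with 3 libraries each and 12 in all, and no group was left untransfected. FASRL itself was not among the genes analysed here, so the depth of its knockdown is not given. The paper reports that knockdown efficiency was checked in both lines. Effects of FASRL loss and of the siRNA itself cannot be told apart.

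In the Wnt pathway, secreted Wnt proteins bind Frizzled and LRP receptors, which stops a destruction complex built on AXIN and APC from marking beta-catenin for degradation. Beta-catenin then enters the nucleus and, with TCF and LEF factors, raises the expression of target genes, many of which feed back on the pathway as inhibitors. In the liver this pathway sets the pericentral zone, where hepatocytes express glutamine synthetase (GLUL), and HepG2 is a line with a stabilizing deletion in the beta-catenin gene CTNNB1. The sources used here do not give the state of CTNNB1 in LM3.

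Levels are the normalized RSEM values of the deposited tables, and whether they are FPKM or TPM is not stated. Differences are on the log2(value + 1) scale, on which differences shrink as values near 0. A gene was called when the log2 difference reached 1 in size with an adjusted p under 0.05 in limma. Among genes with a mean of at least 5, 0.0785% of 6367 genes had a HepG2 log2 ratio between -0.2 and -0.04, against 9.74% of 5937 genes in LM3. Being listed therefore went with the HepG2 knockdown effect, and since listing decided which members were kept, that effect is given as a description with no test. The effect in LM3 and the baseline difference were tested across the listed genes at 1 or more in at least 3 libraries of the fit. The tables list 8842 genes, beside 20056 protein-coding genes in RefSeq. Shares of all genes and adjusted p-values below therefore refer to this list. The difference between the effects, LM3 minus HepG2, contains the HepG2 effect and is given as a description with its SE.

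**Figure D1:**
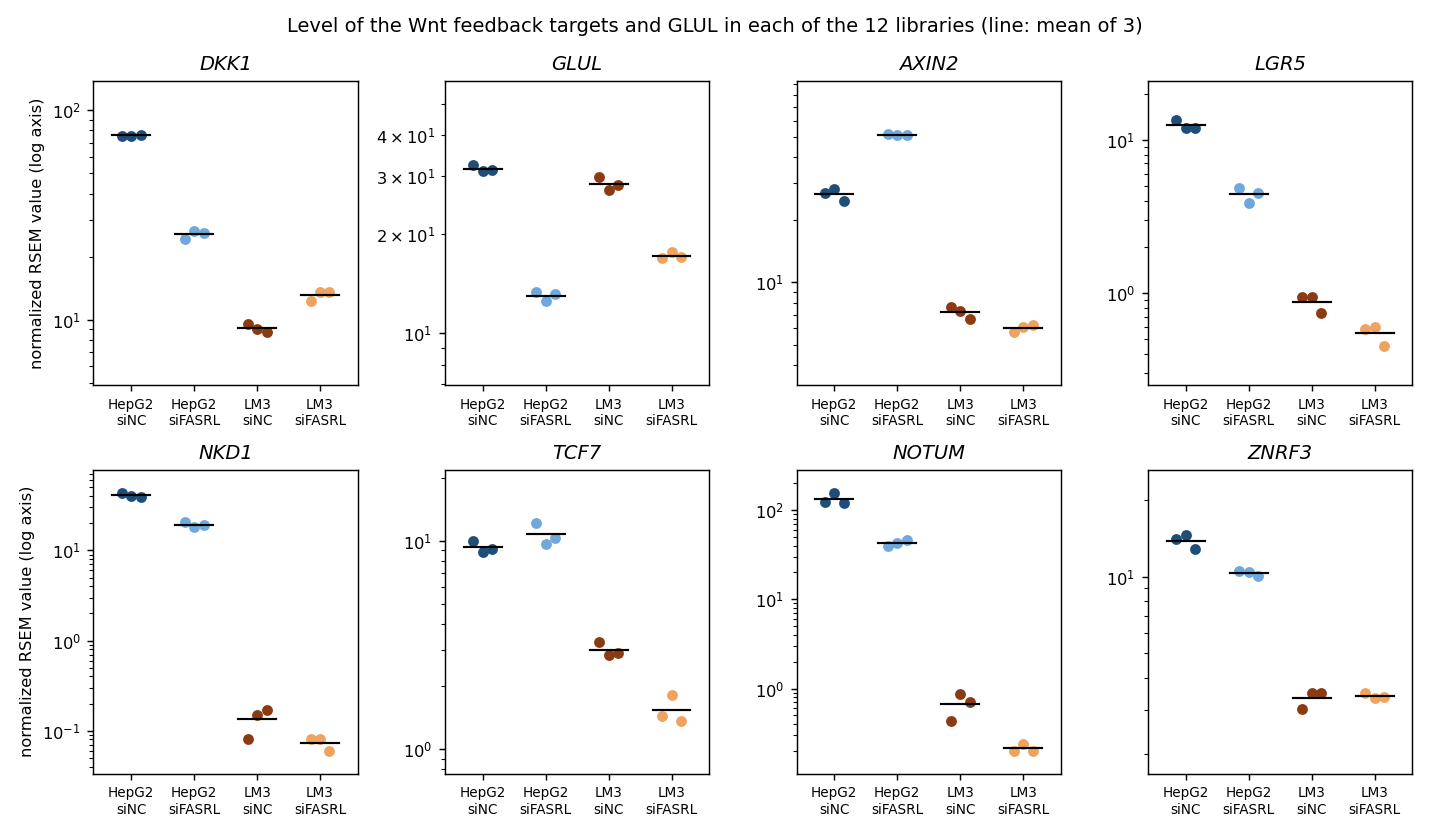
Normalized RSEM value (log axis) of the 8 listed genes in each of the 12 libraries, with 1 point per library and a line at the mean of 3. DKK1 was lower after siFASRL in HepG2 and higher in LM3, and LGR5, NKD1 and NOTUM stayed below 1 in every LM3 library. AXIN2 lay the other way in these values, but its LM3 fall did not pass in limma with median-of-ratios scaling or quantile normalization.

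DKK1 encodes a secreted protein that binds the LRP co-receptors and blocks Wnt signalling at the cell surface (gene ID 22943, GRCh38.p14 chr10:52314281-52317657). In HepG2 its level was 75.6, 75.6 and 76.5 in the siNC libraries and 24.2, 26.5 and 25.96 in the siFASRL libraries. The groups did not overlap, and the highest siFASRL library lay far below the lowest control. In LM3 the siNC libraries held 9.51, 9.05 and 8.77 and the siFASRL libraries 12.3, 13.5 and 13.6. Here too the groups did not overlap, but the order was turned, with every siFASRL library above every control. The log2 difference in HepG2 was -1.53 ± 0.06 (SE, n = 3 per group), a level at 33.7% of the control. DKK1 rose in LM3 by 0.48 ± 0.06 (limma adjusted p = 8.89e-05), to 144% of the control. The LM3 effect minus the HepG2 effect was 2.02 ± 0.08. At baseline, DKK1 was 8.33 times higher in HepG2 than in LM3, with a log2 difference of 2.93 ± 0.05 (limma adjusted p = 8.43e-10). From the highest to the lowest mean, the order was HepG2 siNC, HepG2 siFASRL, LM3 siFASRL and LM3 siNC, and no neighbours in it overlapped. In the siFASRL cells the lines were nearer to each other, with means of 25.6 ± 1.21 in HepG2 and 13.1 ± 0.72 in LM3 (SD, n = 3).

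TCF and LEF factors bind DNA at the core letters CTTTGA, and the stretches before the start of DKK1 and of SP5, a Wnt-induced repressor described further on, are shown because both windows hold these letters, SP5 being added after its values were seen. Promoter windows, from 250 bases before to 50 after the start, were taken from RefSeq on GRCh38.p14. Of the 10 genes, 5 matched a window by symbol (DKK1, GLUL, TCF7, LEF1 and RNF43), as did SP5. AXIN2, LGR5, NKD1, NOTUM and ZNRF3 had no window in the set used, though each has a RefSeq position. CTTTGA or its reverse complement TCAAAG, marked in capitals, occurred 2 times in the DKK1 window and 3 times in the SP5 window. Neither form was found in the windows of GLUL, which was also lower in siFASRL HepG2 cells, or of TCF7, LEF1 and RNF43. Of all 35116 windows, 12.9% held the letters on either strand. The stretches lie on the plus strand, at chr10:52314112-52314211 for DKK1 and at chr2:170715170-170715279 for SP5.
DKK1: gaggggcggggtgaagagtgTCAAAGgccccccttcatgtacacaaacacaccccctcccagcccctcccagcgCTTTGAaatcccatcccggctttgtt
SP5: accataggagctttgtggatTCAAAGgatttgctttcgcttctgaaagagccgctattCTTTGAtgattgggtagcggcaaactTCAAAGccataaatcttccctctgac
The first bases of the matches lie 149 and 95 bases before the DKK1 start, and 147, 109 and 83 bases before the SP5 start. A match describes the letters in these windows, and binding was not measured.

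NOTUM encodes a secreted enzyme that removes the lipid from Wnt proteins (gene ID 147111, chr17:81952507-81961187). It had the highest level of the 8 genes in HepG2 siNC cells, with 125, 158 and 121, and 39.5, 42.7 and 45.9 after siFASRL. The groups were far apart, and the second control library stood above the other controls. In LM3 the values were 0.43, 0.86 and 0.71 in siNC and 0.20, 0.24 and 0.20 in siFASRL, all below 1. The LM3 groups did not overlap, yet NOTUM did not reach the filter of 1 in at least 3 libraries of that line. The mean after siFASRL was 31.8% of the control in HepG2 and 32% in LM3. In HepG2 the log2 difference was -1.62 ± 0.10 (SE), and in LM3, with no filter on low values, it was -0.45 ± 0.09 (limma adjusted p = 0.00361). Nothing is read from this LM3 test, since the values lie near 0 in libraries of unknown depth. The difference between these log2 effects was 1.17 ± 0.15, and 0.39 with a pseudocount of 0.1 in place of 1. It is given as a description, because the percentages of control were alike and the size of the difference rests on the pseudocount.

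ZNRF3 encodes a membrane ubiquitin ligase that removes Frizzled receptors from the cell surface (gene ID 84133, chr22:28883572-29057488). Its level in HepG2 was 14.1, 14.6 and 12.8 in siNC and 10.6, 10.4 and 10.0 in siFASRL. The siFASRL libraries lay below all controls, with a log2 difference of -0.39 ± 0.06 (SE). In LM3 it was 3.02, 3.48 and 3.48 in siNC and 3.49, 3.34 and 3.36 in siFASRL, and the groups overlapped. The LM3 log2 difference was 0.02 ± 0.06, with a 95% interval from -0.11 to 0.16 (limma adjusted p = 0.714). After quantile normalization it was 0.37 (limma adjusted p = 0.000762, against 0.000762 to 0.91 over all alternatives), and without LM3 siNC replicate 1 it was -0.03. The difference between the effects was 0.41 ± 0.08, and 0.67 after quantile normalization.

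LGR5 encodes a receptor for R-spondins, which protect Frizzled receptors from ZNRF3 and RNF43, and it marks stem cells and pericentral hepatocytes (gene ID 8549, chr12:71439129-71586310). Its level in HepG2 was 13.4, 11.9 and 11.9 in siNC and 4.83, 3.88 and 4.5 in siFASRL, with no overlap. LM3 held 0.94, 0.94 and 0.74 in siNC and 0.58, 0.60 and 0.45 in siFASRL, again with no overlap but below the filter. With no filter on low values, the LM3 log2 difference was -0.28 ± 0.06 (limma adjusted p = 0.00573), and nothing is read from this test of values below 1. The log2 difference in HepG2 was -1.31 ± 0.08 (SE), with a level at 35.5% of the control. The difference between the effects, 1.04 ± 0.11, is a description, since LGR5 passed the filter through HepG2 alone.

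AXIN2 encodes a scaffold of the destruction complex and is among the most widely used readouts of beta-catenin activity (gene ID 8313, chr17:65528563-65561648). In HepG2 it was 26.9, 28.3 and 24.6 in siNC and 51.8, 51.1 and 51.5 in siFASRL. It was the only one of the 8 genes whose HepG2 siFASRL libraries all lay above the controls, opposite to DKK1, NOTUM, LGR5, NKD1, GLUL and ZNRF3. In LM3 the values were 7.59, 7.28 and 6.65 in siNC and 5.77, 6.07 and 6.27 in siFASRL. These groups did not overlap either, with every siFASRL library below every control. The log2 difference in HepG2 was 0.93 ± 0.06 (SE), just short of the threshold of 1. AXIN2 fell by 0.21 ± 0.06 in LM3 (limma adjusted p = 0.0103), but not with median-of-ratios scaling (-0.13, limma adjusted p = 0.0793) or quantile normalization (limma adjusted p = 0.994), and over all alternatives the adjusted p ran from 0.00519 to 0.994. The difference between the effects was -1.14 ± 0.08.

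NKD1 encodes a cytoplasmic inhibitor that binds Dishevelled (gene ID 85407, chr16:50548396-50649249). Its HepG2 values were 43.6, 39.9 and 39.6 in siNC and 20.7, 18.2 and 19.2 in siFASRL, without overlap. In LM3 they were 0.08, 0.15 and 0.17 in siNC and 0.08, 0.08 and 0.06 in siFASRL, near 0 and overlapping. The HepG2 log2 difference was -1.05 ± 0.07 (SE), at 47.1% of the control level. In LM3, with no filter on low values, it was -0.08 ± 0.05 (limma adjusted p = 0.166). The difference between the effects, 0.97 ± 0.08, is a description of a gene that passed the filter through HepG2 alone.

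TCF7 encodes a DNA-binding partner of beta-catenin and is also a target of the pathway (gene ID 6932, chr5:134108218-134148210). In HepG2 it was 9.99, 8.88 and 9.13 in siNC and 12.2, 9.71 and 10.3 in siFASRL, and the groups overlapped. In LM3 it was 3.27, 2.82 and 2.91 in siNC and 1.44, 1.81 and 1.37 in siFASRL. There every siFASRL library lay below every control, at 51.3% of the control mean. TCF7 fell by 0.66 ± 0.08 in LM3 (limma adjusted p = 7.44e-05), and by 0.26 after quantile normalization (limma adjusted p = 0.0179, against 1.21e-05 to 0.0179 over all alternatives). The HepG2 log2 difference was 0.18 ± 0.08 (SE), and it was 0.09 without HepG2 siFASRL replicate 1 and 0.28 after quantile normalization. The difference between the effects was -0.84 ± 0.12, and -0.51 after quantile normalization.

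GLUL encodes glutamine synthetase, which joins ammonia to glutamate and serves as a tissue marker of active beta-catenin in liver tumors (gene ID 2752, chr1:182378098-182391790). Its HepG2 values were 32.5, 31.1 and 31.4 in siNC and 13.3, 12.5 and 13.2 in siFASRL. In LM3 they were 29.8, 27.3 and 28.2 in siNC and 16.9, 17.6 and 17.1 in siFASRL. In both lines all siFASRL libraries lay below the controls, and GLUL was the member with the closest baseline levels. The HepG2 log2 difference was -1.22 ± 0.05 (SE), to 41.0% of the control, and GLUL fell by 0.69 ± 0.05 in LM3 (limma adjusted p = 6.14e-06), to 60.5%. Between the effects the difference was 0.53 ± 0.07. At baseline GLUL was 0.15 ± 0.06 higher in HepG2 (limma adjusted p = 0.0361). Without HepG2 siNC replicate 1, 2 or 3 the log2 difference was 0.13, 0.16 and 0.16 (limma adjusted p = 0.122, 0.0549 and 0.0685), and without LM3 siNC replicate 2 or 3 it was 0.12 and 0.14 (limma adjusted p = 0.133 and 0.0941), over fewer libraries each time. In the order of group means, GLUL went from HepG2 siNC over LM3 siNC and LM3 siFASRL to HepG2 siFASRL, with no overlap between neighbours. In the order of each of the 8 genes, neighbouring groups overlapped for NKD1 and ZNRF3 (the LM3 groups) and for TCF7 (the HepG2 groups).

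**Figure D2:**
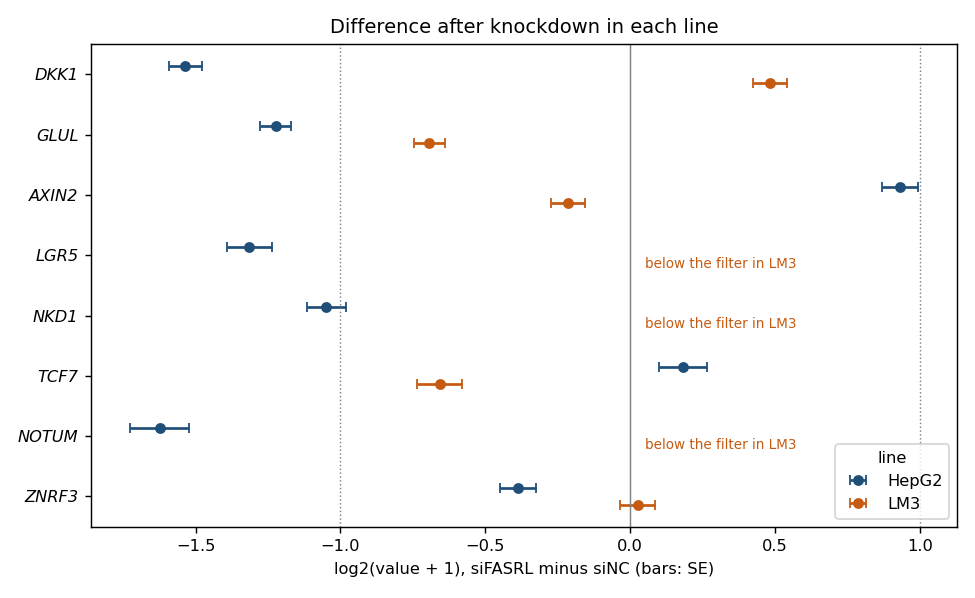
Difference in log2(value + 1) between siFASRL and siNC for the 8 listed genes in HepG2 (blue) and LM3 (orange), with SE bars from limma and dotted lines at a size of 1. DKK1 lies at -1.53 in HepG2 and 0.48 in LM3, and AXIN2 at 0.93 and -0.21; LGR5, NKD1 and NOTUM were below the filter in LM3 and have no point there.

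Across the 8 genes, the HepG2 knockdown left 5 called lower (DKK1, NOTUM, LGR5, NKD1 and GLUL) and 0 called higher, beside 6.79% of 8144 genes tested that were called lower and 3.61% called higher. Since listing went with the HepG2 effect, nothing is read from this count. Their HepG2 groups did not overlap for 7 of the 8 genes, beside 89.6% of all genes tested. In LM3, 5 of the 8 genes passed the filter on low values. None of these was called lower or higher at the fold threshold in limma, beside 6.2% and 1.42% of 7483 genes, while 3 fell with an adjusted p under 0.05 (GLUL, TCF7 and AXIN2) and 1 rose (DKK1), beside 43.5% that fell and 33.9% that rose. At a raw p under 0.05 the LM3 count was also 4, and the groups did not overlap for 4 of the 5 genes tested, beside 80.1% of all genes tested. Since so many genes passed in LM3, nothing is read from these LM3 counts about the members as a list. The median log2 difference was -1.14 for the 8 genes in HepG2, against 0.10 for all genes, and -0.21 for the 5 genes tested in LM3, against -0.06. Under quantile normalization the called genes were split more evenly, with 47.5% higher in place of 34.7% in HepG2, 38.5% in place of 18.6% in LM3 and 51.3% in place of 66.9% at baseline.

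The baseline comparison asked whether control cells of the line with activated beta-catenin held more of these transcripts. Of the 8 genes, 7 were called higher in HepG2 siNC than in LM3 siNC, beside 15.6% of 8176 genes tested, and GLUL was the exception. The log2 differences were 1.37 ± 0.07 for TCF7, 1.75 ± 0.07 for AXIN2, 1.78 ± 0.07 for ZNRF3 and 2.93 ± 0.05 for DKK1, and each of these genes was measured at 1 or more in all 12 libraries. LGR5, NKD1 and NOTUM were at 1 or more in no LM3 library and entered the comparison only through HepG2, where they were high, so they had to differ, and their differences were 2.84 ± 0.07, 5.21 ± 0.06 and 6.34 ± 0.13. Without HepG2 siNC replicate 1, 2 or 3 these 3 genes no longer reached 1 in 3 libraries, and 4 members were called. Quantile normalization moved the median of all genes by -0.14 in this comparison, and relative to that median the differences were 1.26 for TCF7, 1.72 for ZNRF3, 1.83 for AXIN2, 3.08 for DKK1 and 0.32 for GLUL. The same comparison called 9 of 10 hepatocyte, 4 of 4 fetal liver and 3 of 4 biliary markers higher in HepG2, from lists described further on. Most hepatocyte markers and all fetal liver markers were below 1 in LM3 siNC. Of 76 other pathway genes tested, 19 were called higher in HepG2 and 10 lower. Higher levels in HepG2 siNC cells were thus not particular to the 8 genes. Line, genotype and culture cannot be told apart, and these are bulk samples, in which fewer cells of a type and less RNA per cell cannot be told apart. The baseline comparison shares the siNC libraries with the knockdown comparisons.

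In the fit of the difference between the knockdown effects, DKK1, AXIN2, LGR5 and NOTUM passed the thresholds of a call, beside 4.84% of 8285 genes tested, and the adjusted p was under 0.05 for all 8 genes, beside 46.7%. Nothing is read from these counts, because the HepG2 effect went with listing and LGR5, NKD1 and NOTUM passed the filter through HepG2 alone. For DKK1 and AXIN2 the effects had opposite signs in the lines. The LM3 effect of AXIN2 depended on scaling. It was -0.13 with median-of-ratios scaling (limma adjusted p = 0.0793). After quantile normalization it was -0.001, and the difference between the lines was -0.85. The signs also differed for TCF7 (0.18 in HepG2 and -0.66 in LM3) and ZNRF3 (-0.39 and 0.025). The HepG2 groups of TCF7 and the LM3 groups of ZNRF3 overlapped. LGR5 missed the size of 1 without HepG2 siFASRL replicate 2 (0.96). It also missed it without HepG2 siNC replicate 1 or LM3 siNC replicate 3 (0.98 and 0.98). NKD1 reached the size of 1 without HepG2 siFASRL replicate 1 (1.02) and after quantile normalization (1.17). With a pseudocount of 0.1, LGR5 (0.88) and NOTUM (0.39) missed it and TCF7 reached it (-1.12). NOTUM also missed it with a pseudocount of 0.5 (0.94).

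Beside the 10 genes, 153 other genes of the pathway, its targets and liver zonation were looked up by role, and 78 of them were listed. In HepG2 6 of 77 tested were called higher and 13 lower, with a median log2 difference of 0.20. In LM3 3 of 66 were called higher and 3 lower, with a median of 0.03. Counts by role include members of the 8 genes where they belong to the role, and HepG2 counts are again a description. Over all genes tested, 3.61% were called higher and 6.79% lower in HepG2, and 1.42% and 6.2% in LM3, and the counts by role stand beside these shares. With an adjusted p under 0.05, 43.5% fell and 33.9% rose in LM3, and with a raw p under 0.05, 44% and 34.7%. The lists were not tested as sets.

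**Figure D3:**
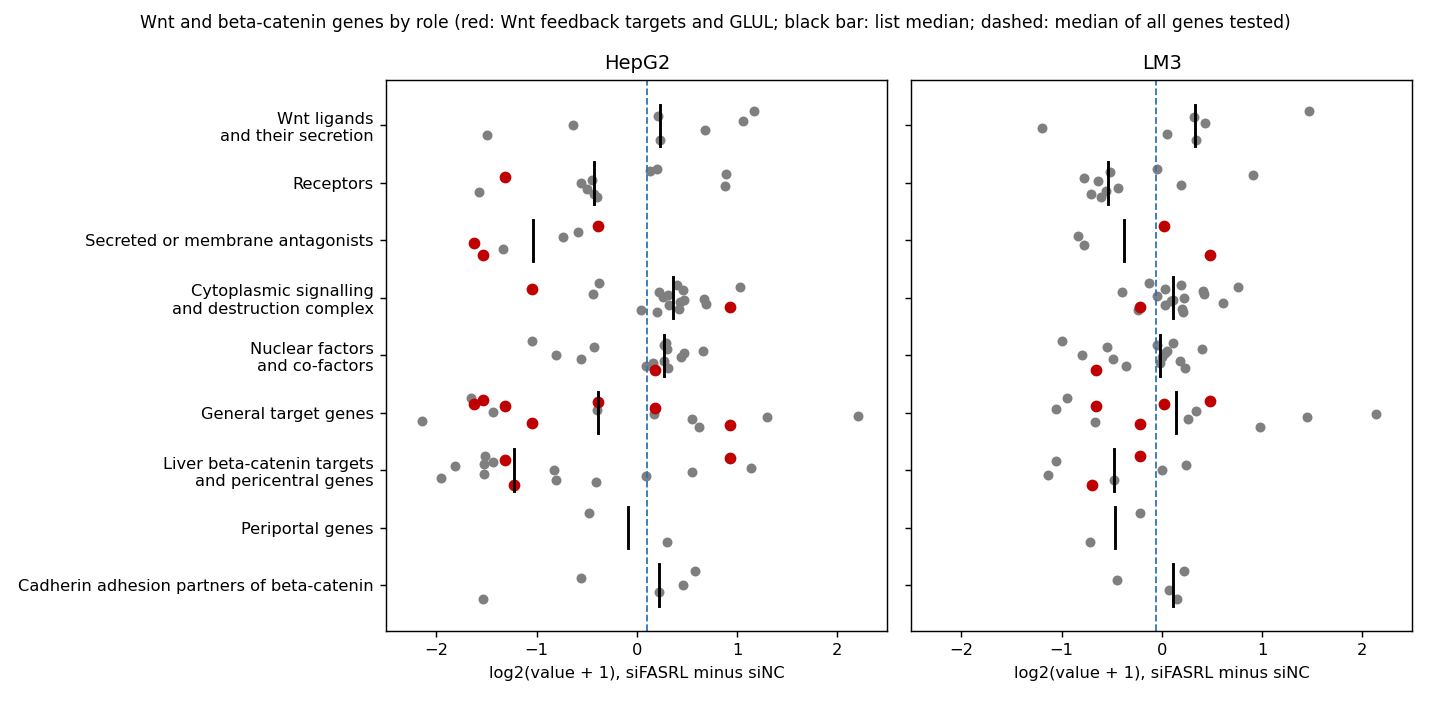
Difference in log2(value + 1) between siFASRL and siNC for the tested genes of 9 lists, in HepG2 (left) and LM3 (right), with 1 point per gene, the 8 listed genes in red, a black bar at each list's median and a dashed line at the median of all genes. In HepG2 the medians of antagonists (-1.03) and of liver targets (-1.22) lie to the left of the line at 0.10. The medians of receptors (-0.43), general targets (-0.39) and periportal genes (-0.09) also do, and those of the other lists lie to its right.

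Among Wnt ligands and factors for their secretion, 7 of 25 were listed. WNT6, WNT10B and RSPO3 were called in HepG2, where WNT6 went from a mean of 3.38 ± 0.60 (SD, n = 3) to 0.54 ± 0.05, WNT10B from 3.17 ± 0.36 to 7.69 ± 0.21, and the R-spondin RSPO3 from 0.32 ± 0.06 to 1.98 ± 0.19. WNT6 and RSPO3 passed the HepG2 filter through the higher group alone. In LM3 RSPO3 had means of 0.76 ± 0.10 in siNC and 3.87 ± 0.64 in siFASRL, and since it passed the filter through the siFASRL group alone, its log2 difference of 1.46 ± 0.10 is a description. WNT9A had LM3 means of 3.76 ± 0.17 in siNC and 1.08 ± 0.15 in siFASRL, where 2 libraries reached 1, and its log2 difference of -1.199 ± 0.07 is a description. The median of the list was 0.23 in HepG2 and 0.33 in LM3. WNT10B was far higher in LM3 controls, at 78.4 ± 6.55, than in HepG2 controls.

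Of 18 receptors, 11 were listed, and in HepG2 FZD4, a Frizzled receptor, and LGR5 were called lower. FZD4 was 26.04, 25.96 and 24.8 in HepG2 siNC and 8.02, 7.77 and 7.90 in siFASRL, and in LM3 it fell by 0.56 ± 0.05 (limma adjusted p = 1.17e-05) with every siFASRL library below every control. In LM3 0 of 10 receptors tested were called by limma, while 7 fell and 2 rose with an adjusted or a raw p under 0.05. The median was -0.43 in HepG2 and -0.54 in LM3.

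Of 21 secreted or membrane antagonists, 6 were listed, and all 6 had lower means in HepG2 siFASRL cells, with DKK1, NOTUM and DKK3 called. DKK3 had means of 8.02 ± 0.58 in siNC and 2.58 ± 0.27 in siFASRL. In LM3 4 were tested and 0 called by limma, with 2 falling and 1 rising at an adjusted or a raw p under 0.05. The medians were -1.03 and -0.38. KREMEN1 and KREMEN2, co-receptors of DKK1, were the antagonists that fell in LM3, by 0.78 ± 0.09 and 0.84 ± 0.14, named after their values were seen.

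The cytoplasmic list of 27 genes had 18 listed, and its median was 0.36 in HepG2 and 0.11 in LM3. CTNNB1 itself, chosen because it encodes beta-catenin, was 102, 108 and 100.4 in HepG2 siNC and 118, 129 and 126 in siFASRL, so every siFASRL library lay above every control. After quantile normalization the HepG2 difference of 0.26 ± 0.06 was 0.09. In LM3 CTNNB1 was 72.2, 76.7 and 74.8 in siNC and 70.3, 72.9 and 72.2 in siFASRL, with the groups overlapping and a log2 difference of -0.05 ± 0.05 (limma adjusted p = 0.348). That difference was 0.05 with median-of-ratios scaling and -0.14 after quantile normalization (limma adjusted p = 0.0282, against 0.0282 to 0.634 over all alternatives). In HepG2 the list held 1 gene called lower, NKD1, and 1 called higher, its paralog NKD2. NKD2 was 1.62, 1.94 and 1.26 in HepG2 siNC and 3.84, 4.45 and 4.64 in siFASRL, and in LM3 it was 43.0, 53.4 and 48.7 in siNC and 86.1, 79.8 and 81.8 in siFASRL. The paralogs were thus placed oppositely in the lines, with NKD1 high in HepG2 and near 0 in LM3 and NKD2 low in HepG2 and high in LM3. NKD2 rose in LM3 by 0.76 ± 0.08 (limma adjusted p = 3.57e-05), and 0 of 17 genes of the list tested there were called by limma, with 6 rising and 4 falling at an adjusted p under 0.05 and 9 and 4 at a raw p under 0.05.

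Of 20 nuclear factors and co-factors, 15 were listed. The hepatocyte factor HNF4A was the only one called in HepG2, with 26.8, 27.8 and 23.8 in siNC and 12.6, 11.3 and 12.5 in siFASRL. In LM3 it was 14.4, 14.4 and 14.2 in siNC and 6.32, 7.64 and 6.17 in siFASRL, and fell by 0.998 ± 0.07 (limma adjusted p = 5.66e-06), just under the threshold. In LM3 0 of 15 were called by limma, with 2 rising and 6 falling at an adjusted or a raw p under 0.05. TLE2, counted among the falling, had LM3 means of 1.10 ± 0.07 in siNC and 0.21 ± 0.03 in siFASRL. It passed the filter through the siNC group alone, so its fall is a description. The medians of the list were 0.27 in HepG2 and -0.02 in LM3.

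Of 25 general target genes, 16 were listed, and in HepG2 7 were called lower and 2 higher. SP5, a transcription factor that Wnt signalling induces, was 46.1, 65.8 and 43.8 in HepG2 siNC and 9.87, 11.2 and 11.3 in siFASRL, a log2 difference of -2.15 ± 0.13. In LM3 it was 4.43, 5.99 and 5.69 in siNC and 3.17, 3.29 and 2.51 in siFASRL, and fell by 0.67 ± 0.11 (limma adjusted p = 0.00054), and by 0.37 after quantile normalization (limma adjusted p = 0.0161, against 2.1e-05 to 0.0161 over all alternatives). SP5 was thus lower in both lines, unlike DKK1. The difference between its effects, 1.47 ± 0.20, is a description, since SP5 is named for its HepG2 effect. The inhibitor of differentiation ID2 had means of 200.3 ± 10.7 and 62.9 ± 6.80 in HepG2 siNC and siFASRL. FOSL1 and JUN, subunits of the AP-1 factor, were the genes called higher, and FOSL1 had means of 7.87 ± 0.40 and 39.9 ± 2.81 in HepG2. In LM3 FOSL1 rose by 2.14 ± 0.12 (limma adjusted p = 1.68e-06) and JUN by 1.44 ± 0.08 (limma adjusted p = 1.34e-06), each with no overlap of the LM3 groups. The receptor TNFRSF19 had LM3 means of 2.87 ± 0.15 in siNC and 0.86 ± 0.14 in siFASRL, where 1 library reached 1, and its log2 difference of -1.06 ± 0.07 is a description. The median of the list was -0.39 in HepG2 and 0.14 in LM3.

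Of 21 liver beta-catenin targets and pericentral genes, 15 were listed, and in HepG2 8 were called lower, beside 6.79% of all genes, and 1 higher, beside 3.61%, with a median of -1.22. The ammonium transporter RHBG was 11.7, 13.6 and 12.5 in HepG2 siNC and 2.36, 2.32 and 2.81 in siFASRL. CYP27A1, a sterol hydroxylase, had means of 26.1 ± 3.42 and 6.69 ± 0.54, and RGN, a calcium-binding protein, 4.93 ± 0.67 and 1.06 ± 0.29. In LM3 only 7 of the 15 passed the filter, with a median of -0.48 and 2 called lower, TNFRSF19 and OAT. OAT, ornithine aminotransferase, fell by 1.13 ± 0.07 (limma adjusted p = 2.02e-06) from 28.6, 28.9 and 28.1 to 11.3, 12.5 and 13.7. AHR was the gene of the list called higher in HepG2, named after its values were seen, with means of 11.1 ± 0.64 and 25.6 ± 0.92.

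Of 13 periportal genes, 3 were listed and 2 tested in each line, with 0 called by limma, 2 falling in LM3 at an adjusted or a raw p under 0.05, and medians of -0.09 in HepG2 and -0.46 in LM3. All 5 cadherin partners were listed. E-cadherin (CDH1) was the one called in HepG2, from 8.23, 7.63 and 7.21 to 1.84, 1.97 and 2.16, and stayed between 0.43 and 0.63 in LM3. The medians of this list were 0.22 and 0.11, and 0 of the 4 tested in LM3 were called by limma, with 1 rising and 1 falling at an adjusted or a raw p under 0.05.

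**Figure D4:**
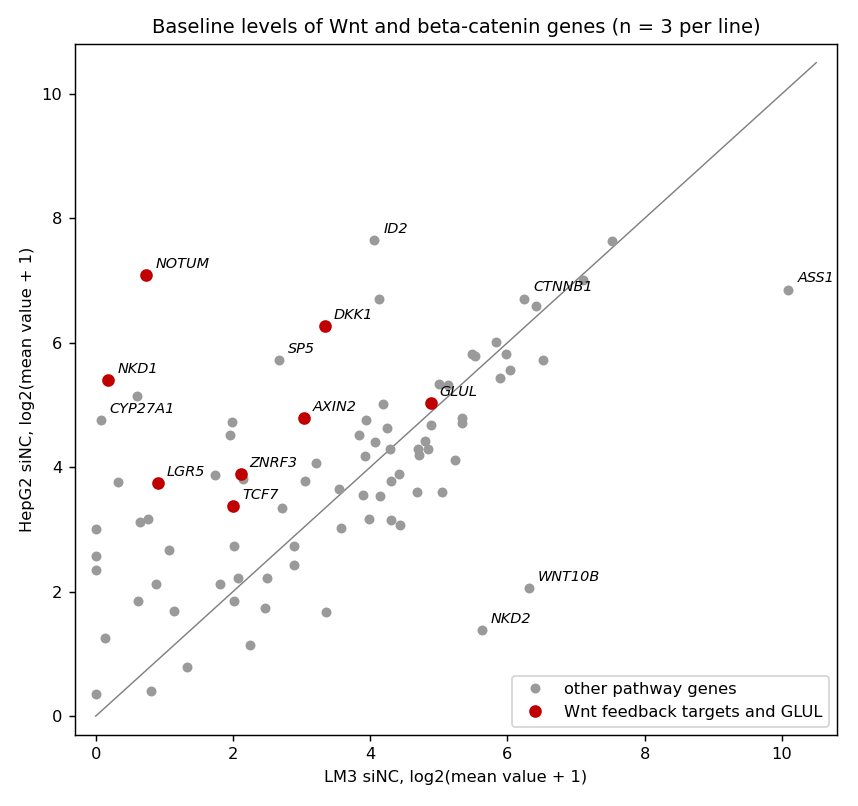
Level of listed pathway genes in the control cells of each line, as log2(mean value + 1) of 3 siNC libraries, with LM3 on the x axis and HepG2 on the y axis and a line where the levels are equal. Red points are the 8 listed genes, of which GLUL lies nearest to the line, and WNT10B and NKD2 lie on the LM3 side.

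The liver identity of the lines was checked with marker lists, because the labels call both of them liver cancer cells. Of 12 hepatocyte markers, 10 were listed, and their summed level was 3532, 3462 and 3199 in HepG2 siNC and 1623, 1518 and 1560 in siFASRL, with SERPINA1 the most abundant and none at 0. All 10 were lower in HepG2 siFASRL cells, 6 of them called, beside 6.79% of all genes called lower, with a median log2 difference of -1.199, and DKK1, NOTUM, LGR5, NKD1 and GLUL were lower in the same libraries. Albumin (ALB) had means of 815 ± 31.7 and 235 ± 5.62. In LM3 the sums were 15.3, 18.2 and 17.4 in siNC and 7.64, 8.07 and 6.80 in siFASRL, with HNF4A the most abundant in each library and SERPINA1 at up to 1.73, while ALB was at 0.06, 0.62 and 0.40 in siNC and at 0.19, 0 and 0 in siFASRL. ALB was highest in LM3 siNC replicates 2 and 3, which also held the most NOTUM in LM3. AFP, GPC3, APOB, SERPINA1 and KRT19 were highest in LM3 in these replicates too, while IGF2 was highest in LM3 siNC replicate 1. At the same share of its HepG2 siNC mean as ALB, NOTUM would be 0.00989, 0.102 and 0.0659 in the LM3 siNC libraries. At the summed share of 12 hepatocyte and fetal liver markers, NOTUM would be 0.028, 0.128 and 0.103. The biliary marker KRT19 was at 0.09, 0.48 and 0.51 there, against a HepG2 siNC mean of 122. The measured NOTUM values were 0.43, 0.86 and 0.71, and their source was not tested. In LM3, ALB was thus below 1 in every library. The 4 fetal liver markers summed to 1489, 1454 and 1321 in HepG2 siNC and 649.9, 612 and 638 in siFASRL, led by AFP, and to at most 1.41 in LM3. The part of the lower liver markers in the lower levels of the 5 called genes was not tested.

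Among biliary markers, 4 of 5 were listed, and the sums were 515, 554 and 508 in HepG2 siNC and 1040, 1095 and 1054 in siFASRL, with KRT7 the most abundant. KRT7 and KRT19 were called higher in HepG2, and KRT7 rose in LM3 by 0.84 ± 0.06 (limma adjusted p = 6.07e-06) with no overlap. The other listed markers lay the other way in HepG2, with log2 differences of -0.996 ± 0.06 for EPCAM and -0.39 ± 0.08 for SOX9. In LM3 EPCAM fell by 0.39 ± 0.07 (limma adjusted p = 0.00108), also with no overlap, and KRT19 was below the filter, with means of 0.36 ± 0.23 and 0.04 ± 0.02. Of 7 fibroblast and stellate markers, 5 were listed, with sums of 67.0, 68.1 and 67.6 in HepG2 siNC, 49.7, 43.7 and 45.7 in siFASRL, with 15.6, 14.6 and 13.6 in LM3 siNC and 5.06, 6 and 5.28 in LM3 siFASRL. The collagen gene COL1A1 fell in LM3 by 1.44 ± 0.08 (limma adjusted p = 1.32e-06), with every siFASRL library below every control, and its part in the LM3 effects on the members was not tested. Collagen COL3A1 was the most abundant in HepG2 siNC and ACTA2 in HepG2 siFASRL. Their HepG2 means in siNC and siFASRL were 31.43 ± 1.05 and 10.31 ± 0.75 for COL3A1, and 10.75 ± 1.19 and 17.44 ± 1.49 for ACTA2. ACTA2 thus lay higher after siFASRL, while COL1A1, PDGFRB and DCN had lower means, as did COL3A1. VWF was the only one of 4 endothelial markers listed and stayed at or below 0.35. Of 5 leukocyte markers, CD68 and LYZ were listed, with sums of 127, 123 and 122 in HepG2 siNC, 97.0, 87.2 and 88.8 in HepG2 siFASRL and 15.1 to 19.0 in LM3. These markers parted in HepG2, where LYZ had means of 82.7 ± 4.86 in siNC and 46.1 ± 3.61 in siFASRL and CD68 of 41.1 ± 3.98 and 44.9 ± 8.23.

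Profiles over the 12 libraries, each centred on its own mean, were compared between DKK1 or GLUL and 8284 other genes by root-mean-square distance on the log2(value + 1) scale. The genes nearest to DKK1 were SERPINA4 (0.19), ADIRF (0.20), MAT1A (0.20), BGN (0.21) and AOC3 (0.21), against a median distance of 1.16 over all genes. SERPINA4 and MAT1A had means of 0 in both LM3 groups, where DKK1 was measured in every library. The genes nearest to GLUL were ZDHHC20 (0.06), ZDHHC23 (0.08), ACAA2 (0.09), ANXA4 (0.10) and SPDYE16 (0.10), against a median of 0.65. ZDHHC20 had means of 14.03 in HepG2 siNC, 5.63 in HepG2 siFASRL, 13.5 in LM3 siNC and 7.42 in LM3 siFASRL. This is a description of likeness over 12 libraries from 4 groups, with no test.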

How the data were processed

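The analysis used 12 libraries of polyadenylated RNA, labelled by line, siRNA and replicate number. The paper says in general that work on cell lines was repeated, but nothing states that these replicates were separate cultures, so p-values measure the spread between these samples, which may be technical. The authors aligned reads with HISAT2 and Bowtie2, computed expression per gene with RSEM and deposited RSEM values in a normalized unit other than counts, with 2 decimals, so depth is unknown and precision comes from 3 replicates. The submitters' notes name hg19, while the chromosome names in the tables are those of GRCh38; positions are from RefSeq on GRCh38.p14. Of 8842 genes, 8790 matched RefSeq by gene ID. Dates in place of 17 symbols were restored by gene ID, and 6 columns repeating other samples were not used. Whether counting used strand is not stated.

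Genes at 1 or more in at least 3 libraries of a fit were tested on the log2(value + 1) scale by limma (version 3.58.1, R version 4.3.3), and p-values were adjusted over all genes tested by the Benjamini-Hochberg method. Each line was fitted on 6 libraries, control cells of both lines on 6, and the interaction on 12. The code was tested on simulated data. The members and lists were chosen with earlier results of these data known. Genes named are the members, the 3 genes per list and line with the largest change among those called, and the 5 most alike to DKK1 and GLUL. CTNNB1 was named as the gene of beta-catenin, and KREMEN1, KREMEN2, AHR, TLE2 and single cell type markers after their values were seen. Alternatives were the pseudocount, the filter, scaling, a joint fit, an intensity trend, the replicate number as a block, the adjusted p alone, and leaving out each library. Figures used matplotlib 3.10.9 and tables pandas 2.3.3 in Python 3.11.15.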

Additional observations from a re-analysis of the deposited data

Results flagged for a closer look

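The difference of the knockdown effects between HepG2 and LM3 came from the interaction fit of limma. It is given as the LM3 effect minus the HepG2 effect on the log2(value + 1) scale. Among the members at 1 or more in all 12 libraries it was 2.02 for DKK1, -1.14 for AXIN2, -0.84 for TCF7, 0.53 for GLUL and 0.41 for ZNRF3, and these passed an adjusted p of 0.05 in that fit, as did 46.7% of all genes tested. The HepG2 effect, which went with listing, is part of each difference, so the values are a description and nothing is read from the test. Beside the members, the difference was -0.31 for CTNNB1 and 1.47 for SP5, which is named for its HepG2 effect. LGR5 at 1.04, NKD1 at 0.97 and NOTUM at 1.17 passed the filter through HepG2 alone, and their LM3 levels were below 1. For NOTUM the siFASRL level was 31.8% of the control in HepG2 and 32% in LM3, and the difference was 0.39 with a pseudocount of 0.1.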

How the results depend on the processing

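Of 592 values of 37 gene results under the alternatives, 575 kept their direction and their side of an adjusted p of 0.05, 9 no longer passed that p, 6 newly passed it and 2 reversed. The reversed values were ZNRF3 in LM3, which ran from -0.027 without LM3 siNC replicate 1 to 0.051 without replicate 2 when libraries were left out and reached 0.372 with quantile normalization, and CTNNB1 in LM3, at 0.046 with median-of-ratios scaling; neither main value had passed the test, and the cause was not tested. Called genes numbered 847 of 8144 in HepG2, 570 of 7483 in LM3, 1911 of 8176 at baseline and 401 of 8285 in the interaction. By the adjusted p alone they numbered 7257, 5790, 6618 and 3868, since that drops the fold threshold. With a pseudocount of 0.1 they numbered 1373 in HepG2, 900 in LM3 and 664 in the interaction, and with a mean of at least 5, which tests fewer genes, 371 in LM3 and 218 in the interaction. The members called at baseline ranged from 4 to 7 when libraries were left out, because 3 of them then missed the filter.

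With the replicate number as a block, called genes numbered 847, 570, 1911 and 401, as without it. A balanced block leaves the log2 differences unchanged, so these counts do not test pairing. TCF7 in HepG2 newly passed the adjusted p with the block, with median-of-ratios scaling, after quantile normalization and without HepG2 siFASRL replicate 2. Nothing is read from this, since listing went with the HepG2 effect. Same-numbered libraries did not all deviate together, with correlations from -0.195 to 0.362 in HepG2 from -0.163 to 0.0908 in LM3 and from -0.286 to 0.534 between the controls of the lines, and 4 of 6 HepG2 and 2 of 6 LM3 libraries correlated best with their own number. With unknown depth, no detection limit can be given for the LM3 values near 0.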
